A study of Mus musculus with 4 samples.

Results

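The set described here holds 10 mouse genes that mark fetal liver or are imprinted, or that silence such genes after birth: Afp, H19, Igf2, Gpc3, Dlk1, Meg3, Cdkn1c, Plagl1, Zbtb20 and Zhx2. They were chosen by gene name, and all 10 were found among the 19504 named genes of the array, where they were read by 31 of 45037 probe sets (a probe set is a group of short oligonucleotides against 1 transcript region). Liver total RNA came from WT mice and mice lacking Tm7sf2 (Tm7sf2-KO), all 6 weeks old and of strain C57Bl/6, with no sex or drug treatment given in the labels, and was hybridized to Affymetrix MOE430 v2 arrays. Tm7sf2 encodes a sterol reductase found in the endoplasmic reticulum and the nuclear membrane, and the knockout line had been backcrossed to C57/B6. Each genotype had 2 arrays. Nothing in the labels tells if those came from 2 animals, so a p-value here rests on array-to-array spread that could be purely technical. All values are log2 expression values after the authors' normalization, and every change is KO minus WT.

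During the weeks around birth the mouse liver shuts off a group of genes that it expresses strongly in the fetus. Afp, the fetal counterpart of albumin, H19, an untranslated RNA, and Gpc3, a cell surface proteoglycan, are silenced together. The zinc finger protein Zhx2 is required for that repression, and the zinc finger protein Zbtb20 for that of Afp. Imprinted genes are expressed from 1 parental copy only, and many of them act on fetal growth and are silenced in the same period in several organs. The values below therefore ask whether liver of young adult KO mice reads like WT liver for this switch.

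The 4 arrays followed their labels at Tm7sf2 itself, whose brighter probe set fell from 10.26 ± 0.01 in WT to 7.51 ± 0.06 in KO (SD, n = 2 each, limma adjusted p = 1.65e-06), while its dimmer probe set had means of 7.48 in WT and 7.52 in KO. The tissue read as liver. Albumin (Alb), with 14.68 and 14.72 in WT and 14.76 and 14.70 in KO, gave the highest value of the probe sets tested (14.76). Its values thus lay at the top of the scale. None of 8 hepatocyte markers passed the test. Past both thresholds means an adjusted p under 0.05 (5% FDR, the false discovery rate) with a change of at least 0.5, or 1.41-fold, and rose and fell are used of genes past both.

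H19 alone among the 10 genes passed both thresholds, and it rose. Its single probe set read 6.65 and 6.78 in the WT arrays and 7.60 and 7.55 in the KO arrays. Both KO arrays were above both WT arrays, and the gap between the groups was several times the gap within either. WT averaged 6.71 ± 0.09 and KO 7.58 ± 0.03 (SD, n = 2 each). H19 was thus 1.82-fold higher in KO, a log2 change of 0.87 with an SE of 0.08 and a 95% confidence interval from 0.68 to 1.05 (limma adjusted p = 0.00154). So 1 of 31 member probe sets was called, against 0.706% of all 45037 probe sets in either direction and 0.380% upwards.

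How far these values stand above background was judged against 89 probe sets of chemosensory receptor genes, which liver is not known to use. Their means over the 4 arrays ran from 5.87 to 7.01, with a 95th percentile of 6.74. The WT mean of H19 lay inside this range, at or below 6 of the 89, and the KO mean lay above their highest. The WT level of H19 is thus close to background, and the fold is a ratio of signals that include background. Its KO values of 7.60 and 7.55 lay near those of the brighter Tm7sf2 probe set in KO, 7.47 and 7.55. Clear expression of H19 is therefore not shown in either genotype. In whole tissue, a change in the number of cells that express a gene and a change in RNA per cell cannot be told apart.

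Leaving out an array could not decide the H19 call, since a genotype then keeps 1 array. The call was lost there, but so was that of Tm7sf2 itself. With any 1 array left out the H19 change stayed at 0.80 to 0.93, and that of Tm7sf2 at -2.79 to -2.70. The 24 probe sets for added control transcripts read 0.355 higher in KO on average, and with the arrays centred on them the H19 change was 0.51 (adjusted p = 0.000485), which still passed both thresholds, while the median of all probe sets went from 0.01 to -0.35. Values with this centring carry that shift of all probe sets, and 39759 of 45037 had an unadjusted limma p under 0.05 there. They are given below for some genes only. Others not called as deposited also passed 5% FDR there, such as Gpc3 (adjusted p = 0.00532) and Alb (adjusted p = 0.00444).

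**Figure D1:**
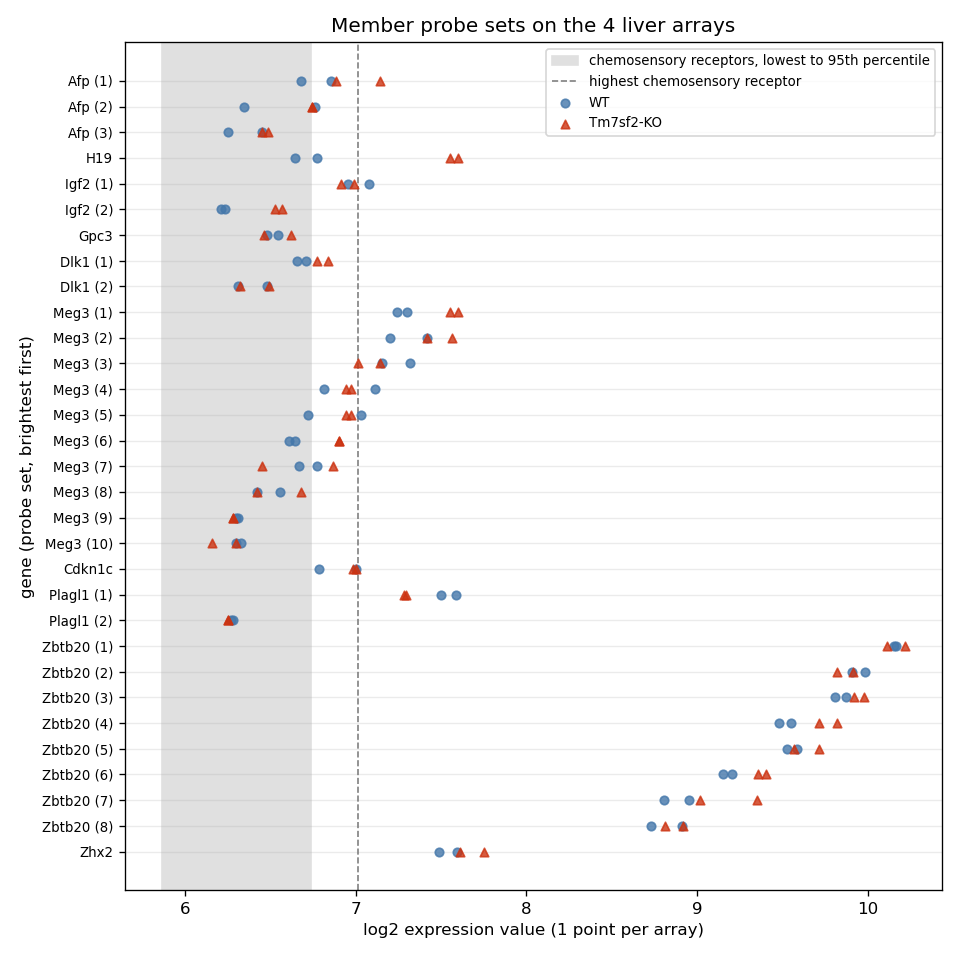
Log2 expression value (horizontal axis) of every member probe set on each array, with WT as circles and Tm7sf2-KO as triangles, and probe sets of a gene numbered from the brightest. The grey band spans chemosensory receptor probe sets from the lowest mean (5.87) to the 95th percentile (6.74) and the dashed line is their highest mean (7.01). H19 lies at 6.65 and 6.78 in WT and at 7.55 and 7.60 in KO, and the Zbtb20 probe sets lie between 8.73 and 10.22.

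The H19 gene also carries a microRNA, miR-675, which is cut from the H19 transcript. The arrays read long RNA and not mature microRNAs, so no value for it exists here. Its arms are shown because they are the known short products of the only member that was called. In RefSeq on GRCm38.p6 the 5p arm lies at chr7:142577112-142577133 and the 3p arm at chr7:142577078-142577099, both on the minus strand and inside H19. The sequences run 5′ to 3′ with the seed, bases 2 to 8, in capitals, and 0 other mature mouse microRNAs of the RefSeq table shared either seed.
mmu-miR-675-5p: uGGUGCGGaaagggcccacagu
mmu-miR-675-3p: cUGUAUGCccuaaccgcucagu

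Igf2, which encodes a fetal growth factor, is the neighbour of H19 in the same imprinted domain and shares enhancers with it. Its brighter probe set read 7.08 and 6.96 in WT and 6.99 and 6.92 in KO, so the groups overlapped, with a change of -0.06 (95% confidence interval -0.25 to 0.12, limma adjusted p = 0.822). Centred on the added controls it was -0.42 and passed 5% FDR (adjusted p = 0.00168). The dimmer probe set read 6.21 and 6.23 in WT and 6.53 and 6.57 in KO. There the KO arrays were the higher ones, by 0.33 (SE 0.08, 95% confidence interval 0.15 to 0.50, limma unadjusted p = 0.00213, adjusted p = 0.0949), at a level inside the chemosensory range in both genotypes. The intervals of both Igf2 probe sets lay below that of H19, but the difference between H19 and Igf2 was not tested.

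Around H19 on chromosome 7, none of the 10 measured genes on either side passed in limma at 5% FDR. This set of 20, chosen after the values of H19 were seen and placed by gene order on GRCm38.p6, had changes from -0.32 to 0.33 with a median of -0.01. Next to Igf2 its antisense transcript Igf2os read 6.78 and 7.06 in WT and 7.18 and 6.89 in KO, which overlapped (change 0.11, limma adjusted p = 0.774). Ins2, an insulin gene, read 6.92 and 6.90 in WT and 7.10 and 7.05 in KO (0.17, adjusted p = 0.4), with both KO arrays higher. The extremes of the 20 were Tssc4 (-0.32, adjusted p = 0.257) and the hair keratin-associated gene Krtap5-3, read at background (0.33, adjusted p = 0.149). Of these 20 genes, 9 had a mean above the 95th percentile of the chemosensory probe sets, so most of the neighbourhood was read near background.

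**Figure D2:**
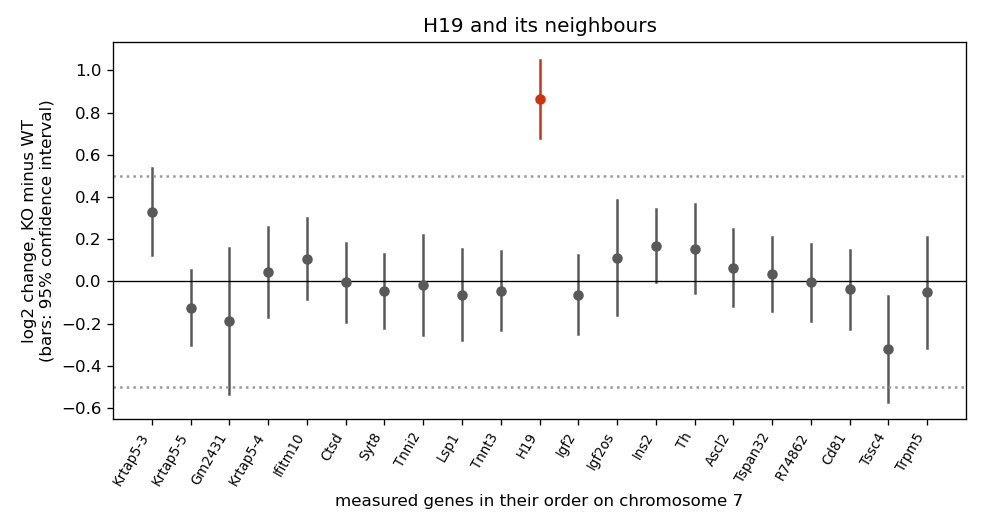
Log2 change, KO minus WT (vertical axis, bars are 95% confidence intervals from limma), of H19 and the 10 measured genes on either side, in their order on chromosome 7, each at its brightest probe set. Dotted lines mark changes of 0.5 in either direction. H19 stands at 0.87 and its neighbours between -0.32 and 0.33.

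Afp, the serum protein that fetal hepatocytes make in large amounts, did not pass at any of its 3 probe sets. The brightest read 6.86 and 6.68 in WT and 7.14 and 6.89 in KO. The KO arrays lay above the WT arrays, but only just, and the change was 0.24 (SE 0.11, 95% confidence interval 0.01 to 0.48, limma unadjusted p = 0.0444, adjusted p = 0.369). The other probe sets gave 0.19 and 0.12 with overlapping arrays (adjusted p = 0.584 and 0.657). In WT all 3 means lay inside the chemosensory range. The neighbours of Afp in the albumin family did not pass either, Alb with 0.03 (adjusted p = 0.926), the vitamin D carrier Gc with 0.13 (0.541) and the vitamin E carrier Afm with 0.05 (0.868).

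The Afp promoter is shown because Zhx2 and Zbtb20 act on Afp through it. RefSeq promoters matched 7 of the 10 members (not H19, Cdkn1c or Zhx2). The 250 bases before the annotated Afp start lie at chr5:90490464-90490713 on the plus strand of GRCm38.p6. Capitals mark GTTAAT, the core of sites bound by the hepatocyte factor HNF1, and TATAAA, the TATA motif, both searched on both strands, and found 105 and 7 bases before that start. They do not overlap. Over all 32851 RefSeq windows of this length 6.43% held GTTAAT and 12.4% held TATAAA, and Afp was the only 1 of the 7 members with GTTAAT. The window holds 1 CG pair, whereas the Gpc3 window holds 25, the Plagl1 window 19 and the first Meg3 window 10, against a median of 6 over all windows. A match of letters is a description and not evidence of a bound site.
Afp promoter: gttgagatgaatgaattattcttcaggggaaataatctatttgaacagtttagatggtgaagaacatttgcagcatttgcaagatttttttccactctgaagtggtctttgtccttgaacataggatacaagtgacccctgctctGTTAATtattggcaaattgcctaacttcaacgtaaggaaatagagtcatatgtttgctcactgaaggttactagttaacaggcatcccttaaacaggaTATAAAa

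Gpc3, which Zhx2 also represses, read 6.48 and 6.55 in WT and 6.47 and 6.62 in KO. The arrays overlapped and all lay inside the chemosensory range (change 0.03, 95% confidence interval -0.16 to 0.23, limma adjusted p = 0.926). In mice of the BALB/cJ strain, which carry a faulty Zhx2 gene, adult liver keeps Afp, H19 and Gpc3 on together. Here the same genes read 0.24, 0.87 and 0.03. The intervals of Afp and Gpc3 lay below that of H19, and the differences between the genes were not tested. The other glypicans Gpc1, Gpc2, Gpc4, Gpc5 and Gpc6 ran from -0.22 to 0.14, and none passed at 5% FDR in limma. Only Gpc4 had an unadjusted limma p under 0.05, against 15.2% of all named genes.

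Both repressors read above the highest chemosensory mean (7.01), Zhx2 by much less than Zbtb20, and neither was called on the values as deposited. Zbtb20 was read by 8 probe sets with values from 8.73 to 10.22, all above every chemosensory probe set. The brightest read 10.16 and 10.15 in WT and 10.22 and 10.11 in KO, a change of 0.0039 (95% confidence interval -0.18 to 0.18, limma adjusted p = 0.991). At 4 of the 8, which are not independent readings, the KO arrays lay above the WT arrays, against 22.4% of all probe sets. An unadjusted limma p under 0.05 was reached at 3, against 13.0% of all probe sets. The largest of these changes was 0.30, with 8.81 and 8.95 in WT and 9.35 and 9.02 in KO (adjusted p = 0.289). The 8 changes ran from -0.08 to 0.30 with a median of 0.10, and 0 passed at 5% FDR. Zhx2 read 7.59 and 7.49 in WT and 7.61 and 7.75 in KO, with the KO arrays just above the WT arrays, a change of 0.14 (95% confidence interval -0.05 to 0.34, adjusted p = 0.563). These Zhx2 values lay near the 7.47 and 7.55 that the brighter Tm7sf2 probe set read in KO, so clear expression is not shown for Zhx2. The same limit holds for H19 in KO and for the brightest probe sets of Meg3 and Plagl1. The Zhx2 relatives Zhx1 and Zhx3 read -0.08 and 0.07 (adjusted p = 0.792 and 0.78). Centred on the added controls both passed 5% FDR as lower, Zbtb20 with -0.35 (adjusted p = 0.00348) and Zhx2 with -0.21 (adjusted p = 0.047), against a median of -0.35 over all probe sets there.

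**Figure D3:**
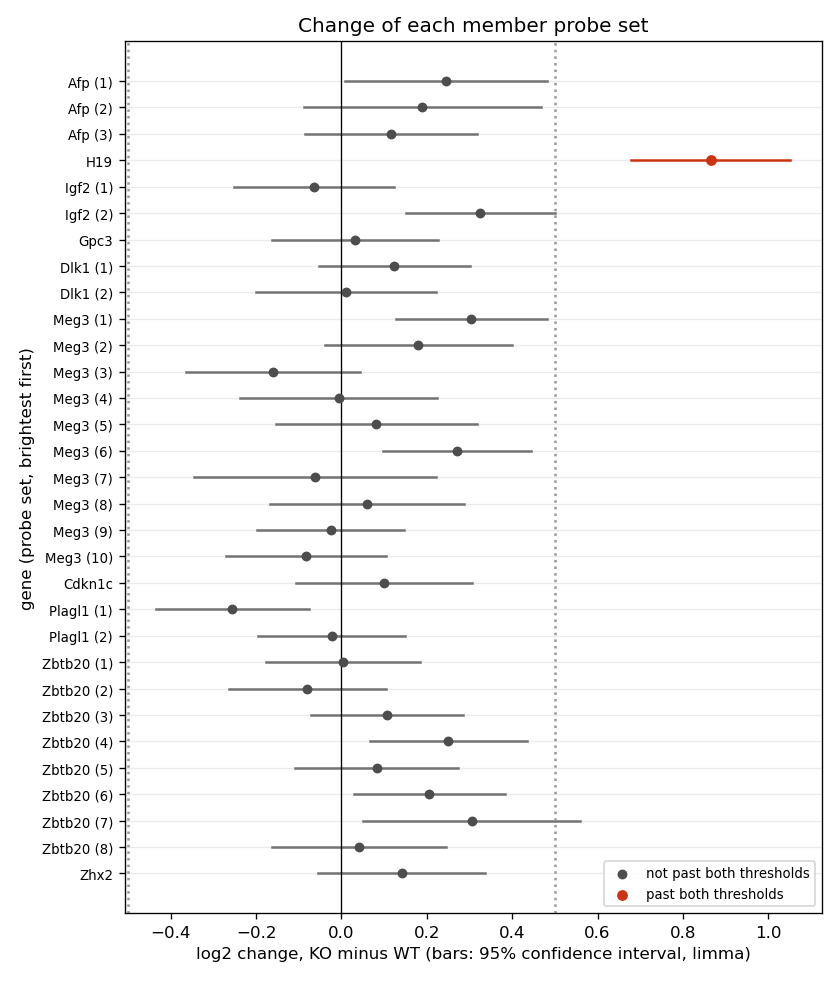
Log2 change, KO minus WT (horizontal axis), of each member probe set, with bars for 95% confidence intervals from limma, and probe sets of a gene numbered from the brightest. Dotted lines mark changes of 0.5 in either direction. H19 (0.87) is the only probe set past both thresholds, and the other 30 lie between -0.26 and 0.33.

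Dlk1 and Meg3 are the coding and the untranslated gene of another imprinted domain, on chromosome 12, where Dlk1 encodes a membrane protein of hepatoblasts. The brighter Dlk1 probe set read 6.71 and 6.66 in WT and 6.84 and 6.78 in KO, the KO arrays being slightly higher (0.12, 95% confidence interval -0.05 to 0.30, limma adjusted p = 0.575), and the dimmer gave 0.01. Both lay inside the chemosensory range. Meg3 was read by 10 probe sets that ran from -0.16 to 0.30, with 5 above 0 and a median of 0.03. At the brightest the KO arrays were higher, with 7.30 and 7.24 in WT and 7.55 and 7.60 in KO (0.30, SE 0.08, unadjusted p = 0.00352, adjusted p = 0.122). A second with KO arrays higher was dimmer, 6.61 and 6.65 in WT and 6.90 in both KO arrays (0.27, adjusted p = 0.162). Another probe set, also above the whole chemosensory range, lay the other way, with 7.32 and 7.16 in WT and 7.14 and 7.01 in KO (-0.16, adjusted p = 0.516). The probe sets of Meg3 thus did not differ in 1 direction, and none passed, though centred on the added controls this last one did (-0.51, adjusted p = 0.000771). Of 12 measured gene names around Meg3 on chromosome 12, also chosen after the values were seen, none passed at 5% FDR in limma (smallest adjusted p = 0.363). Among them was the untranslated imprinted gene Rian (0.09, adjusted p = 0.741). Some of the 12 are microRNA names, read here as long RNA, and Mir1906-1 lies inside Meg3, so they are not all separate neighbours.

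The growth-restraining genes of the set were not called on the values as deposited. Cdkn1c encodes an inhibitor of cyclin-dependent kinases, and it read 7.0 and 6.79 in WT and 7.0 and 6.98 in KO (0.10, limma adjusted p = 0.726). Its relatives differed from it in their calls. Cdkn1a fell from 8.66 and 8.55 in WT to 7.36 and 7.34 in KO (-1.26, adjusted p = 0.00015), and Cdkn1b passed 5% FDR only, with 6.89 and 6.99 in WT and 7.45 and 7.32 in KO (0.45, adjusted p = 0.0427), against -0.06 at its dimmer probe set. The Cdkn1b call was lost with the mean of its probe sets (0.19, adjusted p = 0.306) and with added-control centring (0.0937, adjusted p = 0.337). Plagl1, a zinc finger activator of several imprinted genes, had the lowest change of the members. Its brighter probe set read 7.59 and 7.50 in WT and 7.29 on one KO array and 7.30 on the other, so the KO arrays were the lower ones (-0.26, SE 0.08, 95% confidence interval -0.43 to -0.08, unadjusted p = 0.00993, adjusted p = 0.2). Centred on the added controls it was -0.61 and passed both thresholds (adjusted p = 0.000225). That probe set is of a type in which some probes can bind other transcripts, and the second, at background, gave -0.02.

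Across the set the arrays of the genotypes did not overlap at 15 of 31 probe sets, 11 with KO higher and 4 with KO lower. Over all probe sets this held for 41.1%, with 22.4% higher and 18.7% lower, so the member share is near the background. An unadjusted limma p under 0.05 was reached by 9 of the 31, against 13.0% of all probe sets. Of these 9, Zbtb20 gave 3 and Meg3 gave 2, and probe sets of the same gene are not independent readings. At 5% FDR with any fold, the rule that the study's methods use for transcription factors, 1 of 31 passed (H19), against 1.25% of all. The median change was 0.08 over the 31 probe sets and 0.11 over the genes at their brightest, against 0.01 over all probe sets tested. Of the 31, 21 had a mean over the 4 arrays above the 95th percentile of the chemosensory probe sets (6.74), and the 10 others had no level that could be told from it. Among the 21, the WT means of H19 (6.71), the brighter Dlk1 probe set (6.68) and 1 Meg3 probe set (6.63) lay under that percentile.

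Other imprinted genes gave 1 further call. Of 41 measured, Snrpn, a spliceosome protein gene expressed from the paternal copy, rose from 8.72 on both WT arrays to 9.51 and 9.48 in KO (0.77, SE 0.08, limma adjusted p = 0.00194), none fell, and 40 did not pass both thresholds. Over all 19504 named genes 0.543% rose, 0.487% fell and 1.75% passed 5% FDR at any fold. The second Snrpn probe set, at background, read -0.01, and both are of the type that can bind other transcripts. At 5% FDR alone, and named after their values were seen, the transporter Slc22a18 read 0.45 (adjusted p = 0.0332, but -0.05 at its other probe set) and the adaptor Grb10 read -0.42 (adjusted p = 0.044, but 0.13 and 0.02 at its other probe sets). With the mean of all probe sets neither passed, Slc22a18 at 0.20 (adjusted p = 0.307) and Grb10 at -0.0917 (adjusted p = 0.556). Snrpn lost the fold threshold both with that mean (0.38, adjusted p = 0.0261) and with added-control centring (0.42, adjusted p = 0.00123). The median of the 41 was 0.04, against 0.01 over all named genes.

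In the insulin-like growth factor axis, to which Igf2 belongs, 1 of 15 genes fell and none rose, against 0.487% and 0.543% of all named genes. Igfals, which holds the circulating growth factor complex together, went from 10.20 and 10.21 in WT to 9.61 and 9.63 in KO (-0.58, SE 0.08, limma adjusted p = 0.00791). The ligand Igf1 and the imprinted receptor Igf2r, named here for their roles, read -0.05 and -0.17 (adjusted p = 0.866 and 0.451), and Igf2r passed both thresholds when centred on the added controls (-0.52, adjusted p = 0.00049). The list median was -0.04.

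Further fetal liver and oncofetal genes gave no call. Of 23 measured none passed at 5% FDR in limma (6 had an unadjusted p under 0.05, against 15.2% of all named genes), and the median was 0.05. The lowest limma adjusted p were those of Bex1 (0.32, adjusted p = 0.163) and the epithelial adhesion gene Epcam (0.30, adjusted p = 0.175). Both were read near background, and only 14 of the 23 had a mean above the chemosensory 95th percentile. Of the genes that rise as hepatocytes mature, 25 are reported, and none of these passed both thresholds at its brightest probe set. Their median was 0.12, and all 25 were above the chemosensory 95th percentile. An unadjusted limma p under 0.05 was reached by 9 of the 25, most of them higher in KO and the others lower, against 15.2% of all named genes. At 5% FDR with any fold 2 of the 25 passed, against 1.75% of all named genes. These were Hal (0.47, adjusted p = 0.0259) and Apoa4 (0.42, adjusted p = 0.0406), named after their values were seen. With added-control centring neither Hal (0.11, adjusted p = 0.254) nor Apoa4 (0.0642, adjusted p = 0.504) passed 5% FDR. The dimmer Apoa4 probe set passed both thresholds (0.55, adjusted p = 0.0122).

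**Figure D4:**
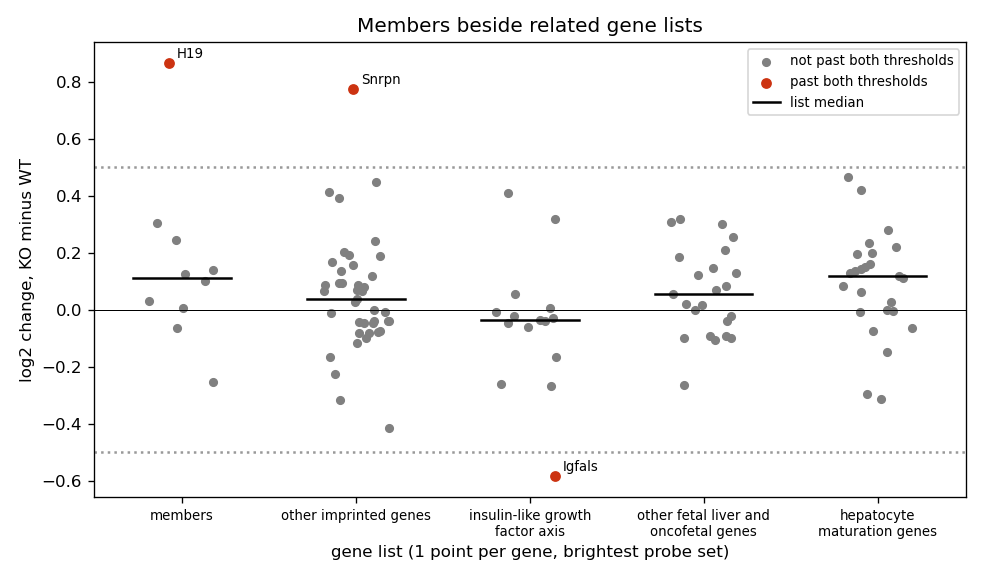
Log2 change, KO minus WT (vertical axis), of the reported genes of the member set and 4 related lists, 1 point per gene at its brightest probe set, with the list median as a bar and dotted lines at changes of 0.5 in either direction. Genes past both thresholds are named, H19 (0.87), Snrpn (0.77) and Igfals (-0.58).

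Markers of cells other than hepatocytes were read on the same arrays, since fetal and imprinted genes are also expressed outside hepatocytes. None of 12 stellate and fibroblast, 11 endothelial, 9 biliary, 9 Kupffer cell, 8 lymphoid, 7 pancreas or 16 erythroid and blood-forming markers passed both thresholds in limma, and the numbers with an unadjusted p under 0.05 were 4, 1, 1, 0, 0, 2 and 2 in that order, against 15.2% of all named genes. The erythroid factor Klf1 passed 5% FDR alone (7.20 and 7.32 in WT, 7.68 and 7.78 in KO, 0.47, adjusted p = 0.0341, but 0.11 and 0.237 with added-control centring), while the list's mean level was 6.75 on both WT arrays and 6.77 to 6.81 in KO. The mean level of the stellate and fibroblast markers was 8.32 to 8.34 in WT and 8.36 to 8.37 in KO, that of the endothelial markers 8.04 to 8.07 and 7.99 to 8.03, and that of the biliary markers 6.92 to 6.97 and 6.97 to 6.98. No marker is at 0 on this scale, whose lowest value is 5.71. All stellate and fibroblast, endothelial and Kupffer cell markers had a mean above the chemosensory 95th percentile. Only 4 of 16 erythroid and blood-forming, 4 of 9 biliary, 3 of 8 lymphoid and 4 of 7 pancreas markers did. The rest of those lists was read near background, so the lack of a call there says little. The part of these cells in the H19 value was not tested.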

How the data were processed

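The authors normalized the MOE430 v2 arrays by quantiles and deposited log2 values, 1 per probe set and array. The submitters' notes list affy and limma with no version. For background correction, probe summary and genome build: not given in the sources used here. A deposited table of the authors' comparison, which holds a log2 ratio and an adjusted p-value column, served only for gene names and chromosomes. Array medians were 6.66 to 6.67. The number of arrays limits the precision, and no counts exist.

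The 64 control probe sets were left out. The genotypes were contrasted in R 4.3.3 by limma 3.58.1 (lmFit and eBayes, two-sided, all 4 arrays, no covariate) with Benjamini-Hochberg adjustment over 45037 probe sets. Residual degrees of freedom were 2. No exact permutation test was used, since with 2 arrays a group its smallest p is 0.333. The fit was tested on simulated data. Each listed gene was represented by its brightest probe set, and members absent under their names were skipped. Named genes were every member, Tm7sf2, up to 4 genes a list past both thresholds, from lists without any such gene up to 2 with the lowest adjusted p, and any gene of the short families. From the list of hepatocyte maturation genes 1 gene is not reported here, and its counts, median and plot leave that gene out. The members and lists were chosen with earlier results of these data known. Alternatives changed the scaling, the dim probe set filter, the variance prior, the replicate block, the probe set choice and the arrays included.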

Additional observations from a re-analysis of the deposited data

How the results depend on the processing

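Second quantile normalization, median centring, a variance trend, a robust prior and the replicate block each left H19 as the 1 member probe set past both thresholds (change 0.86 to 0.87, adjusted p = 0.00035 to 0.0043). H19 also passed with dim probe sets left out, but its WT mean is under that filter's limit and its KO level carries it over, so this is no support. The replicate numbers share only a number: deviations of same-numbered arrays correlated at -0.04, and with the replicate block limma called 305 probe sets in place of 318. The block changed no member call, but these genes no longer passed 5% FDR: Hal (adjusted p = 0.0502), Slc22a18 (0.0594), Grb10 and Apoa4 (0.0693 each) and Cdkn1b (0.0744). Centred on added control transcripts, 4993 of 45037 probe sets and 3 of 31 member probe sets (of H19, Plagl1 and Meg3) passed both thresholds. Of the 31, 22 passed 5% FDR there. The same 22 had an unadjusted limma p under 0.05, against 39759 of all 45037 probe sets. There the changes took the other sign for Afp (-0.11), Gpc3 (-0.32), Dlk1 (-0.23), Meg3 (-0.0503), Cdkn1c (-0.26), Zbtb20 (-0.35), Zhx2 (-0.21), Alb (-0.33), Gc (-0.22), Afm (-0.31), Zhx3 (-0.28), Bex1 (-0.0378), Epcam (-0.0536), Igf2os (-0.24), Ins2 (-0.19), Rian (-0.27) and Krtap5-3 (-0.0238), as all values shifted. Slc22a18 (0.0928, adjusted p = 0.343) no longer passed 5% FDR, and Grb10 (-0.77) and Tssc4 (-0.67) then passed both thresholds. Zbtb20 was -0.0106 after a second quantile normalization and -0.0033 after median centring. With the mean of all probe sets, Igf2 was 0.13 and Zhx3 -0.0841.

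With 1 array left out, 0 to 0 probe sets passed both thresholds, over the array and among the members, and 0 to 0 member probe sets passed 5% FDR (4 to 9 had an unadjusted p under 0.05), and signs changed within these ranges: Gpc3 -0.0469 to 0.11, Cdkn1c -0.0082 to 0.21, Zbtb20 -0.0492 to 0.0569, Zhx1 -0.19 to 0.0260, Alb -0.0005 to 0.0568 and Igf2os -0.0330 to 0.26. Signal over background limits the 10 member probe sets at or under the chemosensory 95th percentile.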
